A study of Mus musculus with 36 samples.

Results

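The genes for the protein subunits of the mitochondrial ribosome were followed in mouse liver. They were found by name only, as the genes whose array symbol is Mrpl (large subunit) or Mrps (small subunit) with a number and, in some, a letter a, b or c. This gave 77 genes of the 37325 on the array, with 119 probes, and each gene was read from its probe with the highest mean log2 signal over the 36 arrays. All 77 were among the 24250 genes tested. By textbook knowledge, 28 encode large-subunit proteins with a bacterial counterpart, 22 large-subunit proteins without one, 16 small-subunit proteins with one and 10 small-subunit proteins without one. The remaining gene, Mrps36, carries a ribosomal name, but its product has been assigned to the 2-oxoglutarate dehydrogenase complex. The signal was well above background on all 36 arrays for 76 of the 77 genes and on 35 for Mrpl35.

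Liver RNA of 36 male C57Bl/6J mice was hybridised to Agilent arrays in 1 colour, 1 array per mouse and 6 mice per group. AAKO mice lack ATGL, the lipase that starts the release of fatty acids from stored fat, in white adipose tissue, so the lipase was not targeted in the liver that was measured, and CTRL mice were their controls. Each genotype was fed ad libitum, fasted for 24 h, or fed and gavaged at Zeitgeber time 10 with 3 mg/kg of CL316243, which activates beta 3 adrenergic receptors on adipocytes and so drives fat breakdown, in carboxymethyl cellulose. All mice were killed at Zeitgeber time 16. No vehicle gavage is described for the fed or fasted groups, and neither the age of the mice nor the promoter that drove the deletion is given in the labels. The fed groups were labelled experiment 2 and the fasted and CL316243 groups experiment 1, so where a group is compared with fed mice the effects of condition and of experiment cannot be told apart. Genotype comparisons, and fasting against CL316243, lie within 1 experiment.

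The mitochondrial ribosome translates the few proteins encoded by mitochondrial DNA, all of them hydrophobic subunits of the respiratory chain and the ATP synthase. Its RNA comes from mitochondrial DNA, whereas every protein subunit is encoded in the nucleus, made in the cytosol and imported. Liver is rich in mitochondria, which burn the fatty acids that reach it from adipose tissue during a fast.

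Promoter windows of genes described below are shown first, because the genes, apart from Mrps36, encode parts of 1 ribosome but do not share a start-site sequence. RefSeq promoters (GRCm38.p6, 250 bases before to 50 bases after the start) were held for 68 of the 77 genes. Both strands were searched for 3 sequences bound by factors known for nuclear genes of mitochondrial proteins. The NRF1 sequence (GCGCA, any base, GCGC) was in 13 of the 68 promoters (19.1%, against 5.19% of the promoters of all 27025 symbols). The ETS sequence CCGGAAG, bound by GABPA and related factors, was in 25 (36.8%, against 9.93%). The YY1 sequence AANATGGCG was in 10 (14.7%, against 2.76%). No promoter held all 3, 7 held a pair, 34 held 1 and 27 held none. A match describes the letters and not the binding of a factor. In the windows below, read 5′ to 3′ on the strand of the gene, capitals mark the matched sequence, and positions count from the start site.
Mrps22, ETS, chr9:98601680-98601739, minus strand, positions -11 to -5: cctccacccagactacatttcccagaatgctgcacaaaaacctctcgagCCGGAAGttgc
Mrpl14, NRF1, chr17:45686343-45686372, plus strand, positions 5 to 14: aacccctggcGCGCAGGCGCagcgtgcggg
Mrpl35, YY1, chr6:71823742-71823771, minus strand, positions 24 to 32: ggcaggctgcAAGATGGCGgcttccatctt
Mrps30, YY1, chr13:118387218-118387247, minus strand, positions 16 to 24: gcggcgggcgAAAATGGCGgcggccaggta
Mrps27, ETS on the other strand, chr13:99344712-99344771, plus strand, positions -48 to -42: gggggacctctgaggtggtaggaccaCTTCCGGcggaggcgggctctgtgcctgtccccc
Mrps27, YY1, chr13:99344790-99344819, plus strand, positions 15 to 23: ggtgcgctccAAGATGGCGgctcccatggt
Mrps12, ETS, chr7:28741802-28741831, minus strand, positions 2 to 8: aaggaggaaccCCGGAAGgggctggaggta
Mrpl17, NRF1, chr7:105811102-105811161, minus strand, positions -49 to -40: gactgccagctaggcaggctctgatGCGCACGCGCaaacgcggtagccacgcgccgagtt
Mrpl17, ETS, chr7:105811278-105811337, minus strand, positions -237 to -231: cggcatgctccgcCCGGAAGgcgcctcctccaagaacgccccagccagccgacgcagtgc
Mrps18b, ETS on the other strand, chr17:35916391-35916408, minus strand, positions 44 to 50: gcgcagtcgctCTTCCGG
Mrps26, ETS on the other strand, chr2:130563697-130563756, plus strand, positions -14 to -8: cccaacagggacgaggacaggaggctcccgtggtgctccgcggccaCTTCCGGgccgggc
Mrps26, NRF1, chr2:130563745-130563774, plus strand, positions -2 to 8, overlapped by a second match at positions 5 to 14: tccgggccggGCGCAGGCGCaggcgctggc
Mrpl9, NRF1, chr3:94443276-94443335, plus strand, positions -28 to -19: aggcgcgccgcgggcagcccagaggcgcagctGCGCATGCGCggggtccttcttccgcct
Some genes that moved in opposite directions below carry the same sequence. In fasted mice Mrpl35 was lower and Mrps30 higher in AAKO than in CTRL, and both hold the YY1 letters just after the start. Mrpl14 was lower and Mrpl9 higher there, the latter not called in wash batch 2 alone, and both hold the NRF1 letters. Directions were not counted over all genes with a match, and a link of sequence to direction was not tested.

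Signal is given as log2 of its ratio to the array's 75th percentile, so that 0 is the brightness of that percentile, and these levels rank samples for 1 gene but not genes against each other. Differences are log2 ratios with their standard errors from 1 limma fit over all 36 arrays, and a gene is called when its Benjamini-Hochberg adjusted p over the 24250 genes is under 0.05. Probe positions are the files' own, on mm9, and come with no exon, intron or UTR annotation. In whole liver, fewer cells of a type and less RNA per cell cannot be told apart.

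Taken array by array, the genes as a whole were lowest in fasted AAKO livers. The median of the 77 genes, each set against its CTRL fed mean, lay between -0.53 and -0.36 on the 6 AAKO fasted arrays, with a median of -0.41. On the CTRL fasted arrays it ran from -0.28 to -0.17, and replicate 2 had the lowest value. All AAKO fasted arrays were therefore below all CTRL fasted arrays. The other 4 groups overlapped each other, from -0.05 to 0.06 in CTRL fed, from -0.15 to 0.05 in AAKO fed, from -0.19 to -0.04 in CTRL CL316243 and from -0.18 to 0.03 in AAKO CL316243. The lowest arrays of both CL316243 groups also overlapped CTRL fasted mice. The same median over all tested genes stayed between -0.16 and 0.04 on all 36 arrays.

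**Figure D1:**
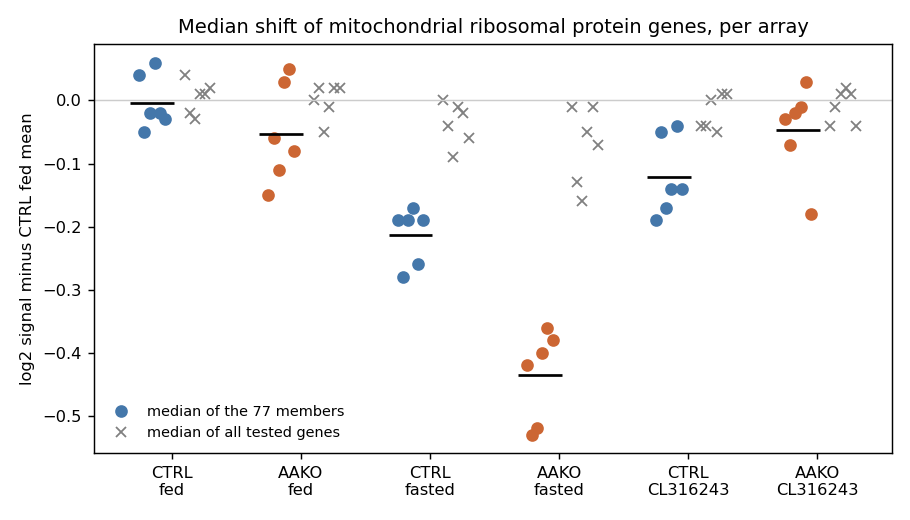
Median over the 77 mitochondrial ribosomal protein genes (points) and over all tested genes (crosses) of the log2 signal minus the CTRL fed mean, 1 mark per array, for the 6 groups of 6 mice, with lines at the group means of the points. The AAKO fasted points, between -0.53 and -0.36, lie below those of every other group, while the crosses stay between -0.16 and 0.04.

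In fed mice, the 77 genes did not differ detectably between the genotypes. None was called, 6 had an unadjusted p under 0.05, and over all genes 0.0784% were called. The 77 log2 differences (AAKO minus CTRL) ran from -0.19 to 0.05 with a median of -0.06. The smallest p was that of Mrpl17, a large-subunit protein with a bacterial counterpart, at -0.19 ± 0.06 (adjusted p = 0.340), with a 95% interval of -0.30 to -0.07. The median standard error over the 77 genes was 0.07. For Mrps22, a small-subunit protein whose signal differed in fasted mice, the interval in fed mice was -0.29 to 0.12.

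After the fast, most of the genes were lower in AAKO livers than in CTRL livers. Of 77 genes, 45 were called lower in AAKO (58.4%) and 12 higher (15.6%), where over all tested genes 27.2% were lower and 22.0% higher. The median difference was -0.21, against -0.03 over all genes tested, and 61 genes had an unadjusted p under 0.05. For 36 of the 77 genes, all called, the 6 arrays of one genotype did not overlap the 6 of the other, where 21.3% of all tested genes did not. Changes were mostly small, with a median absolute value of 0.33 among the called genes. At 1.5-fold or more, 5 genes were lower and 1 was higher. Here and below, the share of all tested genes past 1.5-fold was not counted.

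Lower genes were found in all 4 classes of subunit protein, in different shares. Of the 28 genes for large-subunit proteins with a bacterial counterpart, 20 were lower in AAKO and 2 higher (median -0.30). Of the 22 genes for large-subunit proteins without one, 12 were lower and 4 higher (median -0.19). Among the 16 genes for small-subunit proteins with a counterpart, 10 were lower and 1 higher (median -0.30). Of the 10 genes for small-subunit proteins without one, 3 were lower and 5 higher (median 0.18). These class medians kept their sign when arrays were scaled to their median, quantile normalized, background-corrected with normexp or taken from the authors' deposited table, where the last class ran from 0.15 to 0.22.

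**Figure D2:**
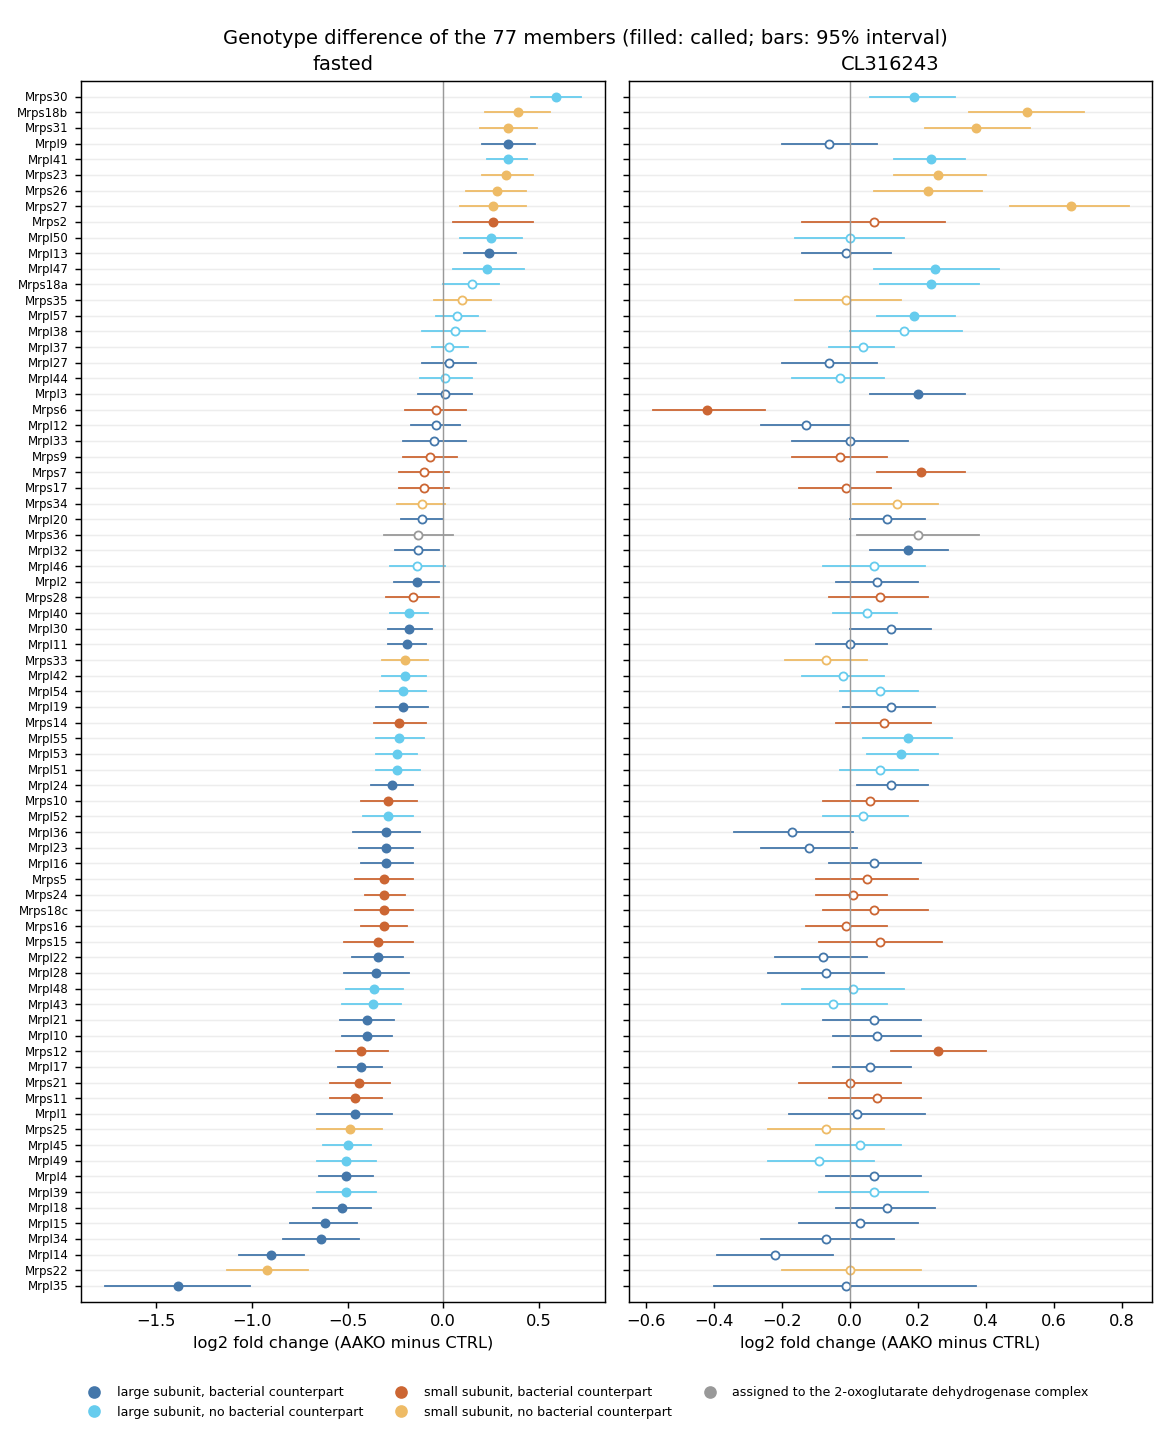
Log2 difference between AAKO and CTRL for each of the 77 genes with its 95% interval, in fasted mice (left panel) and in CL316243-treated mice (right panel), in the same gene order in both. Filled points were called at an adjusted p under 0.05 and colours give the class of the protein. In fasted mice 45 genes lie at called lower values, down to Mrpl35 at -1.39, and in CL316243-treated mice 16 lie at called higher values, up to Mrps27 at 0.65.

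Mrpl35, a large-subunit protein with a bacterial counterpart (probe at chr6:71763258-71763317), showed the largest genotype difference. Its signal in fasted mice was between -5.05 and -4.06 in AAKO (median -4.36) and between -3.96 and -2.18 in CTRL (median -3.09). The genotypes did not overlap, and both lay below the fed range of CTRL mice, -2.07 to -1.65. The fasted difference was -1.39 ± 0.19, a 2.62-fold lower signal (adjusted p = 2.59e-07). Mrpl35 is dim and was well above background on 5 of the 6 AAKO fasted arrays. With a normexp background correction the difference was -0.44, still called but no longer the largest, with Mrpl14 at -0.87.

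Mrpl14, a large-subunit protein with a bacterial counterpart (probe at chr17:45835317-45835376), was much brighter and moved the same way. It read between 4.89 and 5.29 in fasted AAKO mice (median 5.26) and between 5.66 and 6.17 in fasted CTRL mice (median 6.13). Every AAKO array was below every CTRL array, although CTRL replicate 2, at 5.66, stood below the rest of its group. The difference was -0.90 ± 0.08, or 1.86-fold (adjusted p = 2.62e-10).

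Mrps22, a small-subunit protein without a bacterial counterpart (probe at chr9:98489195-98489254), ranged from 1.15 to 1.51 in fasted AAKO mice (median 1.30). In fasted CTRL mice it ranged from 1.84 to 2.45 (median 2.27). The groups did not overlap, and the difference was -0.92 ± 0.10 (adjusted p = 6.45e-09). A second Mrps22 probe gave -0.98. Mrps22 and Mrps25 (-0.49 ± 0.08, adjusted p = 1.30e-05) were 2 of the 3 genes of their class called lower in AAKO. However, Mrps25 was -0.24 in wash batch 2 alone and was not called there (adjusted p = 0.0838). Mrps12, which lies by the decoding centre where codon and anticodon meet (probe at chr7:29524837-29524896), read 4.34 to 4.55 in AAKO and 4.64 to 5.03 in CTRL, with no overlap. It differed by -0.43 ± 0.07 (adjusted p = 4.12e-06).

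Among the genes higher in fasted AAKO than in fasted CTRL livers, Mrps30 differed most. Despite its name it is a large-subunit protein without a bacterial counterpart (probe at chr13:119169203-119169262). It read between 3.62 and 3.80 in AAKO (median 3.70) and between 2.96 and 3.42 in CTRL (median 3.06), with no overlap. The difference was 0.59 ± 0.06, or 1.51-fold (adjusted p = 2.29e-09). In fed CTRL mice it lay between 2.86 and 3.00.

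Mrps18b, a small-subunit protein with 2 paralogs described below (probe at chr17:36047331-36047390), read 6.20 to 6.39 in fasted AAKO mice (median 6.32). In fasted CTRL mice it read 5.51 to 6.12 (median 5.93), below every AAKO array. The difference was 0.39 ± 0.08 (adjusted p = 0.000213), and its other 2 kept probes both gave 0.40. One of these (chr17:36047326-36047385) covers most of the same bases, so it is close to a repeat reading. Mrpl9, a large-subunit protein with a bacterial counterpart (probe at chr3:94252370-94252429), read 3.21 to 3.57 in AAKO against 2.78 to 3.21 in CTRL, just without overlap. It differed by 0.34 ± 0.07 (adjusted p = 0.000117), and by 0.16 in wash batch 2 alone, where it was not called.

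**Figure D3:**
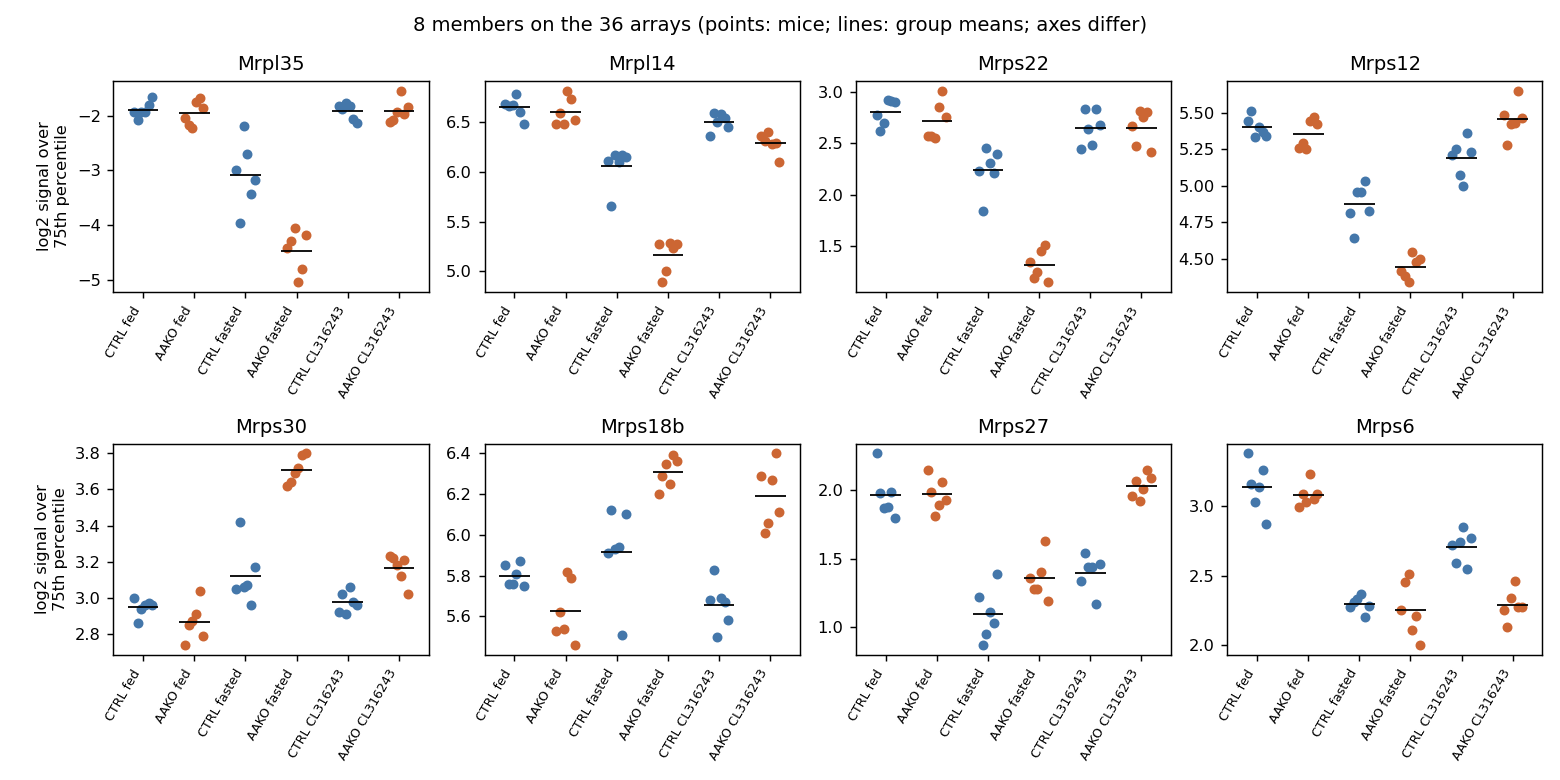
Log2 ratio of the signal to the array's 75th percentile for 8 mitochondrial ribosomal protein genes on all 36 arrays, 1 point per mouse, by group, with lines at the group means and an axis of its own for each gene. Mrpl35, Mrpl14, Mrps22 and Mrps12 are lowest in AAKO fasted mice, Mrps30 is highest there (3.62 to 3.80), Mrps27 is lower in CTRL CL316243 mice (1.17 to 1.54) than in AAKO CL316243 mice (1.92 to 2.15), and Mrps6 is lower in AAKO CL316243 mice (2.13 to 2.46) than in CTRL CL316243 mice (2.55 to 2.85).

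In mice given CL316243 the genotype difference was smaller, and its called genes lay on the other side. In AAKO livers 16 of the 77 genes were higher than in CTRL livers (20.8%) and 1 was lower (1.30%). Over all tested genes 12.9% were higher and 11.6% lower. The median difference was 0.07, against 0.03 over all genes. The 2 groups did not overlap for 7 of the 77 genes, where 11.3% of all tested genes did not, a share near the background. The count depended on the scaling of the arrays. With arrays scaled to their median it was 9 higher and 2 lower, with quantile normalization 13 and 3, and from the authors' deposited table it was 10 and 3. It was 10 without AAKO CL316243 replicate 5 and 9 without CTRL CL316243 replicate 4.

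By class, 2 of the 28 genes for large-subunit proteins with a bacterial counterpart were called, both higher. However, with arrays scaled to their median 1 was called, lower, and by the authors' deposited values 2 were, both lower. Of the 10 genes for small-subunit proteins without a counterpart, 5 were higher in AAKO and none lower (median 0.18). Among the 22 genes for large-subunit proteins without one, 7 were higher and none lower (median 0.07). Of the 16 genes for small-subunit proteins with one, 2 were higher and 1 lower (median 0.06).

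Mrps27, a small-subunit protein of the pentatricopeptide repeat type, which binds RNA (probe at chr13:100185397-100185456), differed most. It read 1.92 to 2.15 in AAKO mice given CL316243 (median 2.04) and 1.17 to 1.54 in CTRL mice (median 1.44), with no overlap. The AAKO values lay within the range of fed CTRL mice, 1.80 to 2.27. The difference was 0.65 ± 0.09, or 1.56-fold (adjusted p = 1.18e-06). Mrps18b read 6.01 to 6.40 in AAKO against 5.50 to 5.83 in CTRL, a difference of 0.52 ± 0.08 (adjusted p = 1.77e-05). By its other 2 kept probes, 1 of which overlaps the main probe, the difference was 0.56 and 0.51. Mrps31, also a small-subunit protein without a bacterial counterpart (probe at chr8:23538340-23539688, across an intron), differed by 0.37 ± 0.08 (adjusted p = 0.000364), and by 0.26 in wash batch 1 alone, where it was not called. A second Mrps31 probe gave 0.16 and was not called (adjusted p = 0.339).

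Mrps6, a small-subunit protein with a bacterial counterpart (probe at chr16:92112223-92112282), was the only gene called lower. It read 2.13 to 2.46 in AAKO mice given CL316243 (median 2.27) and 2.55 to 2.85 in CTRL mice (median 2.73). The groups did not overlap, and the difference was -0.42 ± 0.08 (adjusted p = 0.000214). In wash batch 2 alone it was -0.35 and was not called (adjusted p = 0.115). In fasted mice Mrps6 differed between genotypes by -0.04 ± 0.08, with a 95% interval of -0.20 to 0.12.

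Fasted livers had less signal for most of the genes than fed livers in both genotypes. In CTRL mice 50 of 77 genes fell (64.9%) and 8 rose (10.4%), where over all tested genes 24.0% were lower and 19.8% higher. The median was -0.20, against -0.05 over all genes. In AAKO mice 55 fell (71.4%) and 15 rose (19.5%), where over all tested genes 36.1% were lower and 27.5% higher, and the median was -0.36 against -0.10. At least 1.5-fold, 26 of the 77 genes were lower and 5 higher in AAKO mice, against 12 and 0 in CTRL mice. Over all tested genes more were also called in AAKO mice, and shares past 1.5-fold were not counted. Whether the fasting change differed between the genotypes was tested gene by gene, with the interactions below. The split in CTRL mice moved with the scaling, to 31 lower and 17 higher in the authors' deposited table and to 33 and 16 with quantile normalization. In AAKO mice the median of all genes was 0.01 in the authors' table, a shift of the whole array against the -0.10 above, and 47 of the genes were still lower and 19 higher. Without CTRL fasted replicate 2, the array of its group with the lowest median over the 77 genes, 44 fell and 6 rose in CTRL mice.

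**Figure D4:**
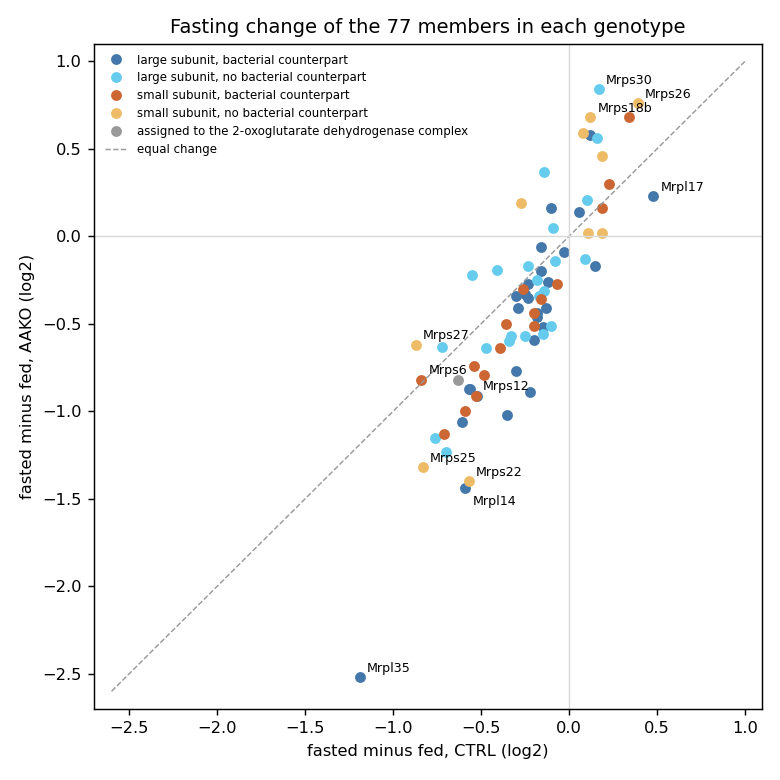
Log2 difference between fasted and fed mice for each of the 77 genes, in CTRL mice on the horizontal axis and in AAKO mice on the vertical axis, with the line of equal differences. The 2 axes use different mice. Mrpl35 lies at -1.19 and -2.52, Mrps30 at 0.17 and 0.84, and Mrpl17 at 0.48 and 0.23.

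Mrpl35 fell most in both genotypes, by 1.19 on the log2 scale in CTRL mice (adjusted p = 4.10e-06) and by 2.52, or 5.72-fold, in AAKO mice (adjusted p = 3.91e-13). With normexp these were -0.51 and -0.93, and Mrpl35 no longer fell most, with Mrps6 at -0.80 in CTRL mice and Mrpl14 at -1.40 in AAKO mice. Mrpl14 fell by 0.59 in CTRL mice (adjusted p = 8.15e-07) and by 1.44 in AAKO mice (adjusted p = 1.78e-15). Its fed values, 6.48 to 6.79 in CTRL and 6.48 to 6.82 in AAKO, did not overlap the fasted ones. Mrps22 fell by 0.57 (adjusted p = 2.73e-05, 0.0545 in wash batch 1 alone) and by 1.40 (adjusted p = 2.04e-13). Mrps6 fell by 0.84 in CTRL mice, from 2.87 to 3.38 when fed to 2.20 to 2.37 when fasted (adjusted p = 4.22e-10), and by 0.82 in AAKO mice (adjusted p = 1.25e-10). The difference between these falls was 0.02 ± 0.11, with a 95% interval of -0.21 to 0.25. Mrps27 fell by 0.87 (adjusted p = 8.38e-10) and by 0.62 (adjusted p = 1.65e-07).

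A few genes rose on fasting. Mrpl17 (probe at chr7:112958345-112958404) rose in CTRL mice by 0.48 ± 0.06 (adjusted p = 2.99e-08), from 3.60 to 3.72 when fed to 4.11 to 4.31 when fasted. In AAKO mice it read 3.39 to 3.61 when fed and 3.64 to 3.91 when fasted, a rise of 0.23 (adjusted p = 0.000575, 0.0599 in wash batch 2 alone). Fed and fasted mice did not overlap in either genotype. Mrps26, a small-subunit protein without a bacterial counterpart (probe at chr2:130391071-130391129), rose by 0.39 in CTRL mice (adjusted p = 0.000109, 0.0515 in wash batch 1 alone) and by 0.76 in AAKO mice (adjusted p = 3.04e-10). Mrps2, a small-subunit protein with a bacterial counterpart (probe at chr2:28326609-28326668), rose by 0.34 in CTRL mice (adjusted p = 0.00717, not called in wash batch 1 alone) and by 0.68 in AAKO mice. Mrps30 rose by 0.84 in AAKO mice (adjusted p = 2.64e-13). In CTRL mice it rose by 0.17 (adjusted p = 0.0217), a call lost in either wash batch alone and without CTRL fed replicate 2 or CTRL fasted replicate 2. Mrps18b rose by 0.68 in AAKO mice (adjusted p = 1.52e-08), and in CTRL mice its difference of 0.12 was not called (adjusted p = 0.268).

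CL316243 was followed by fewer and smaller differences from fed mice. In CTRL mice 21 genes fell (27.3%) and none rose, where over all tested genes 12.7% were lower and 10.5% higher, and the median was -0.13 against -0.03. In AAKO mice 12 fell (15.6%) and 11 rose (14.3%), near the 15.9% lower and 15.5% higher over all genes, and the median was 0.02 against -0.01. At 1.5-fold or more, no gene was called in CTRL mice and 1 was in AAKO mice. These comparisons share no mice with each other, but each sets experiment 1 against experiment 2.

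Mrps27 fell by 0.57 in CTRL mice after CL316243 (adjusted p = 1.10e-05), from 1.80 to 2.27 when fed to 1.17 to 1.54. In AAKO mice its difference was 0.07 (adjusted p = 0.579). Mrps6 fell by 0.44 in CTRL mice (adjusted p = 0.000148) and by 0.79 in AAKO mice (adjusted p = 7.90e-09), from 2.99 to 3.23 when fed to 2.13 to 2.46. It was the gene past 1.5-fold. Mrps36 (probe at chr13:101506215-101509014, across an intron) fell by 0.46 in CTRL mice (adjusted p = 0.000261, 0.0755 in wash batch 1 alone), from 3.32 to 3.60 when fed to 2.62 to 3.19. In AAKO mice Mrpl34, a large-subunit protein with a bacterial counterpart (probe at chr8:73989526-73989585), fell by 0.53 (adjusted p = 9.52e-05, 0.107 in wash batch 2 alone). Mrps21, a small-subunit protein with a bacterial counterpart (probe at chr3:95666577-95666636), fell there by 0.34 (adjusted p = 0.000834), but its difference in wash batch 2 alone was -0.14 and was not called (adjusted p = 0.386). Mrps18b rose by 0.56 in AAKO mice (adjusted p = 4.82e-06), from 5.46 to 5.82 when fed to 6.01 to 6.40. Mrps31 rose there by 0.46 (adjusted p = 1.56e-05; 0.32 and not called in wash batch 1 alone). Mrps23, a small-subunit protein without a bacterial counterpart (probe at chr11:88024940-88024999), rose by 0.30 (adjusted p = 0.000846), and neither wash batch called it alone.

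Fasting and CL316243 were compared within experiment 1, and fasted livers were lower for most of the genes in AAKO mice. There 55 of 77 genes were lower in fasted mice (71.4%) and 10 higher (13.0%), where over all tested genes 34.0% were lower and 26.0% higher. The median was -0.35 against -0.08. The groups did not overlap for 55 genes, where 37.3% of all tested genes did not. In the authors' deposited table the median of all genes in this comparison was 0.05, and 46 of the 77 genes were lower and 18 higher. In CTRL mice 28 genes were lower (36.4%) and 10 higher (13.0%), where over all tested genes 19.3% were lower and 17.8% higher, and the groups did not overlap for 19 genes, where 17.9% of all did not. The median of -0.11 in CTRL mice was -0.00 in the authors' table and -0.01 with quantile normalization, where 23 genes were lower and 19 higher in each, so no direction is given for the genes as a whole in CTRL mice. With arrays scaled to their median 33 were lower and 5 higher.

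Mrpl35 was lower in fasted than in CL316243-treated mice by 2.54 in AAKO (log2 difference -2.54, adjusted p = 5.29e-13) and by 1.16 in CTRL (-1.16, adjusted p = 8.47e-06), and with normexp the 2 differences were -0.99 and -0.52, both called. Mrps22 differed by -1.33 in AAKO mice (adjusted p = 9.68e-13). Mrps25 (probe at chr6:92124834-92124893) read 2.13 to 2.56 in fasted AAKO mice and 3.51 to 3.67 in AAKO mice given CL316243, with no overlap, a difference of -1.22 (adjusted p = 1.20e-13). In CTRL mice it differed by -0.80 (adjusted p = 5.88e-09). Mrpl39, a large-subunit protein without a bacterial counterpart (probe at chr16:84718547-84718606), differed by -0.58 in CTRL mice (adjusted p = 4.05e-07). Mrpl17 and Mrps26 were each 0.51 higher in fasted CTRL mice (adjusted p = 1.87e-08 and 3.40e-06), and Mrps2 was 0.43 higher (adjusted p = 0.00119, with 0.20 and no call in wash batch 1 alone). In fasted AAKO mice Mrps2 was 0.62 higher (adjusted p = 4.29e-06), Mrps26 0.56 (adjusted p = 2.31e-07) and Mrpl9 0.55 (adjusted p = 3.66e-08).

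**Figure D5:**
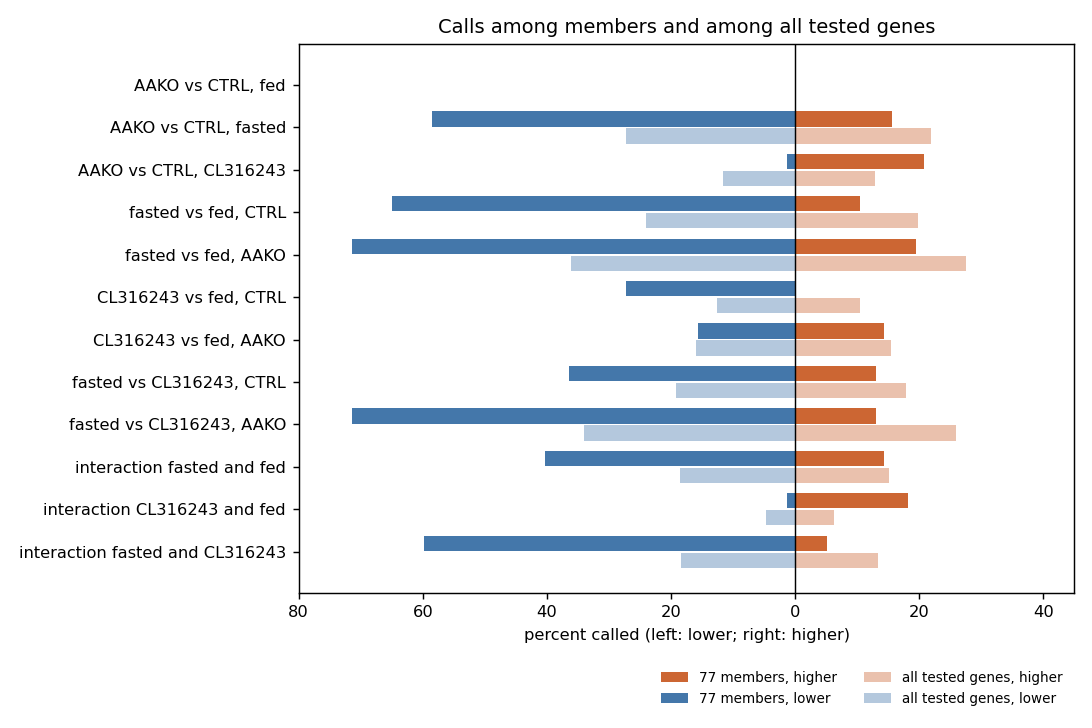
Percent of genes called higher (right of 0) and lower (left of 0) at an adjusted p under 0.05 in each of the 12 contrasts, for the 77 mitochondrial ribosomal protein genes and for all 24250 tested genes. Fasted AAKO mice show the longest bars to the left, 71.4% of the 77 genes against 36.1% of all genes in the comparison with fed AAKO mice.

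Whether the genotype difference itself changed with condition was tested with interaction terms, in which an effect of the experiment shared by both genotypes cancels. The genotype difference was lower in fasted than in fed mice for 31 genes (40.3%) and higher for 11 (14.3%), where over all tested genes 18.6% were lower and 15.1% higher. The median was -0.17 against -0.04, and with arrays scaled to their median 19 genes were lower and 14 higher. The genotype difference was lower in fasted than in CL316243-treated mice for 46 genes (59.7%) and higher for 4 (5.19%), where over all genes 18.5% were lower and 13.4% higher, with a median of -0.30 against -0.07. This last contrast uses mice of experiment 1 only. Between CL316243-treated and fed mice the genotype difference was higher for 14 genes (18.2%) and lower for 1 (1.30%), where over all genes 6.20% were higher and 4.64% lower. That count of 15 rested on single arrays and was 6 without AAKO CL316243 replicate 5 or CTRL CL316243 replicate 3. It was between 7 and 9 without AAKO CL316243 replicate 4, AAKO fed replicate 1, CTRL CL316243 replicate 4 or 6, or CTRL fed replicate 1, 3 or 5, each left out alone.

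Against fed mice, the genotype difference on fasting shifted by -1.33 ± 0.26 for Mrpl35 (adjusted p = 0.000208), -0.85 ± 0.12 for Mrpl14 (adjusted p = 1.54e-06) and -0.83 ± 0.14 for Mrps22 (adjusted p = 3.22e-05). With normexp these were -0.42, -0.84 and -0.76, all called, so that Mrpl35 had the smallest of the 3. The shift was upward by 0.67 ± 0.09 for Mrps30 (adjusted p = 5.84e-07), 0.56 ± 0.12 for Mrps18b (adjusted p = 0.000339) and 0.51 ± 0.08 for Mrpl41 (adjusted p = 4.40e-06). In a single wash batch the calls of Mrps22 (batch 2, -0.46) and Mrps18b (batch 1, 0.55) were lost. Mrpl41 is a large-subunit protein without a bacterial counterpart (probe at chr2:24829696-24829755). Against CL316243-treated mice, the fasted genotype difference shifted by -1.38 ± 0.27 for Mrpl35 (adjusted p = 0.000157), -0.92 ± 0.14 for Mrps22 (adjusted p = 9.63e-06) and -0.69 ± 0.10 for Mrps12 (adjusted p = 2.21e-06). With normexp that of Mrpl35 was -0.47, smaller than the -0.84 of Mrps22. Mrps12 was lower in AAKO mice when fasted and 0.26 ± 0.07 higher in AAKO mice given CL316243 (adjusted p = 0.00448), the second call being made in neither wash batch alone. The upward shifts were 0.40 ± 0.09 for Mrps30 (adjusted p = 0.000580), 0.40 ± 0.10 for Mrpl9 (adjusted p = 0.00208) and 0.37 ± 0.11 for Mrps6 (adjusted p = 0.0109), and none of the 3 was called in both wash batches taken alone (batch 2 gave 0.31, 0.21 and 0.22). Between CL316243-treated and fed mice the shift was 0.70 ± 0.12 for Mrps18b (adjusted p = 0.000135), 0.64 ± 0.12 for Mrps27 (adjusted p = 0.000480) and 0.50 ± 0.11 for Mrps31 (adjusted p = 0.00186). For Mrps6 it was -0.35 ± 0.11 (adjusted p = 0.0386), which was lost without any 1 of 10 arrays. None of these 4 shifts was called in both wash batches taken alone. In batch 1, Mrps31 had 0.23 (adjusted p = 0.571) and Mrps18b 0.53 (adjusted p = 0.176), and Mrps27 and Mrps6 were called in neither batch.

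Genes with a known place in the ribosome did not all follow the majority. Mrpl12, a stalk protein that also binds the mitochondrial RNA polymerase (probe at chr11:120349740-120349799), is an example. It read 5.61 to 5.84 in fed CTRL mice, 5.62 to 5.77 in fasted CTRL mice and 5.57 to 5.84 in fasted AAKO mice, all overlapping. It was called in 2 of the 12 contrasts, lower after CL316243 in AAKO mice (-0.30 ± 0.07, adjusted p = 0.000679) and higher there in fasted than in CL316243-treated mice (0.20 ± 0.07, adjusted p = 0.00776). In wash batch 2 alone the first was -0.13 and not called, and the second was called in neither batch. Mrpl11, at the base of the stalk (probe at chr19:4964880-4964939), read 4.47 to 4.70 in fasted AAKO mice and 4.72 to 4.87 in fasted CTRL mice, with no overlap, and differed by -0.19 ± 0.05 (adjusted p = 0.00225), though neither wash batch called it alone. Mrpl3, a core large-subunit protein with a bacterial counterpart (probe at chr9:104979701-104979760), read 2.70 to 3.05 in AAKO mice given CL316243 and 2.52 to 2.81 in CTRL mice (difference 0.20, adjusted p = 0.0307). That call was made in neither wash batch alone (0.24 and 0.13) and was lost under 6 alternatives, among them normexp, median scaling and the authors' table. Mrps16, a small-subunit protein with a bacterial counterpart (probe at chr14:21210473-21210532), read 4.75 to 4.98 in fasted AAKO mice against 4.94 to 5.29 in fasted CTRL mice. It differed by -0.31 ± 0.06 (adjusted p = 4.22e-05), with a slight overlap.

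The 3 paralogs of the Mrps18 family were classed by their place in the ribosome, where Mrps18a sits in the large subunit and the others in the small subunit, and Mrps18c alone takes the position of the bacterial protein. In the fasted genotype comparison 1 was higher in AAKO mice, 1 was lower and 1 was not called. Mrps18b was 0.39 higher in AAKO mice, as above. Mrps18c (probe at chr5:101233418-101233477) read 3.41 to 3.84 in AAKO and 3.79 to 4.06 in CTRL and was lower by 0.31 on the log2 scale (-0.31 ± 0.07, adjusted p = 0.000943; -0.15 and not called in wash batch 2 alone). Mrps18a (probe at chr17:46265584-46265643) read 3.61 to 3.94 and 3.44 to 3.72, and its difference of 0.15 ± 0.07 was not called (adjusted p = 0.0855). On fasting, Mrps18a and Mrps18c fell by 0.41 and 0.39 in CTRL mice, but with its 2 probes averaged Mrps18a was -0.07 and was not called (adjusted p = 0.571).

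Mrps36 was not called between the genotypes in fasted mice (-0.13 ± 0.09, adjusted p = 0.219) or in mice given CL316243 (0.20 ± 0.09, adjusted p = 0.0966). It fell on fasting by 0.63 in CTRL mice (adjusted p = 5.34e-07) and by 0.82 in AAKO mice (adjusted p = 1.23e-09). Of the 77 genes, 76 were called in at least 1 contrast. The same share was not counted over all tested genes, of which fasted against fed AAKO mice alone called 36.1% lower and 27.5% higher. Mrpl27, a large-subunit protein with a bacterial counterpart (probe at chr11:94521320-94521379), was called in none, with group means between 4.67 and 4.83. Mrps12 was called in 10 of the 12, the most of the 77 genes.

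For 28 of the genes more than 1 probe was kept, with 36 further probes in all. Some of these, among them probes of Mrps18b, Mrps18c and Mrps21, overlap the brightest probe of their gene. Agreement of such a pair is close to a repeat reading. In the fasted genotype comparison 23 pairs had both probes called, 21 of them with the same sign, and in fasted against fed mice 22 of 25 did in AAKO and 16 of 19 in CTRL. Where the brightest probe was called, whether or not the other was, the signs were the same in fewer pairs. They were the same in 24 of 26 in the fasted genotype comparison, and on fasting in 24 of 31 (AAKO) and 17 of 24 (CTRL). In CL316243 against fed CTRL mice 2 of 4 did. The exceptions are genes whose direction depended on the probe, given with the brightest probe first. Mrpl48 was -0.36, -0.39 and -0.44 in the fasted genotype comparison by its 3 brightest probes and 0.85 by the dimmest. The third of these was itself dim, with a mean log2 signal of 4.61. It gave 0.57 in fasted against fed CTRL mice, where the brightest gave -0.34. In fasted against fed AAKO mice the dimmest gave 0.78 and the brightest -0.60. Mrpl47 was 0.23 by its brightest probe and -0.30 by another in the fasted genotype comparison. In fasted against fed CTRL mice Mrpl24 was -0.18 and 0.87, and Mrps31 was -0.27 and 1.18. In fasted against fed AAKO mice Mrps17 was 0.16 and -0.51, and Mrps18a was -0.19 and 0.65. The opposing probes were dimmer, with mean log2 signals between 3.44 (Mrpl48) and 8.12 (Mrps17), where the brightest probes of these genes had 12.13 and 12.65. The probes of a gene can also reach different transcripts, and neither point was tested. The 47 genes with a single probe on the array have no such check.

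Other genes of mitochondrial gene expression were read from lists. In the fasted genotype comparison the 6 subunits of the mitochondrial ribosome that carry other symbols had 2 called, both lower (median -0.05). These were Gadd45gip1 (-0.35 ± 0.06, adjusted p = 2.13e-05) and Ict1, a release factor built into the large subunit (-0.31 ± 0.04, adjusted p = 1.05e-06). Of 15 genes for translation factors 9 were lower in AAKO and 1 higher (median -0.34). Among the lower was Tsfm, the exchange factor of the mitochondrial elongation factor that carries aminoacyl-tRNA, at -0.72 ± 0.10 (adjusted p = 3.89e-07). Taco1, which aids translation of the cytochrome oxidase subunit 1 message, was at -1.05 ± 0.11 (adjusted p = 1.80e-09). Mtif2, the initiation factor that binds the initiator tRNA, was higher in AAKO by 0.24 ± 0.06 (adjusted p = 0.00153). Of 17 genes for mitochondrial aminoacyl-tRNA synthetases 10 were lower and 4 higher (median -0.27). They ran from Wars2 at -0.98 and Lars2 at -0.81 to Ears2 at 0.69 and Mars2 at 1.30.

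The 27 assembly and ribosomal RNA modification factors were mixed, with 8 higher and 6 lower (median 0.07). Mrm2, a methyltransferase of the large ribosomal RNA, was lower (-1.15 ± 0.11, adjusted p = 9.57e-10), as was Mettl15, one of the small ribosomal RNA (-0.88 ± 0.12, adjusted p = 2.03e-07). The helicases Ddx28 (0.96 ± 0.15, adjusted p = 2.18e-06) and Dhx30 (0.60 ± 0.06, adjusted p = 1.41e-09), which act in ribosome assembly, were higher. Of 17 genes of mitochondrial transcription and RNA processing 11 were lower in AAKO and 4 higher (median -0.40). Hsd17b10, a subunit of the mitochondrial RNase P, was at -1.32 and Mgme1, a nuclease of mitochondrial DNA maintenance, at -1.01, while Polrmt, the mitochondrial RNA polymerase, was at 0.56 and Mtpap, the mitochondrial poly(A) polymerase, at 0.69. Of 25 genes of protein import and chaperones 9 were higher and 8 lower (median 0.07). Timm10 at 1.09 and Tomm40 at 0.94 were the highest, and Clpx at -0.92 and Timm17b at -0.42 the lowest.

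Of 12 regulators of nuclear genes for mitochondrial proteins, 7 were higher in fasted AAKO mice and 1 lower (median 0.58). Ppargc1b, a coactivator of such genes, was 1.79 ± 0.29 higher (adjusted p = 5.91e-06), Myc 1.75 ± 0.68 (adjusted p = 0.0329), and Gabpb2 lower at -0.48 ± 0.11 (adjusted p = 0.000446). In mice given CL316243 the first 2 of these were lower in AAKO, Ppargc1b with group means of 0.93 in AAKO and 1.92 in CTRL (adjusted p = 0.0121) and Myc at -2.14 ± 0.68 (adjusted p = 0.0208). Tfam, which packages mitochondrial DNA and acts in its transcription, was at -0.36 there (adjusted p = 0.00115) and Pprc1 at 0.69 (adjusted p = 0.00727).

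Genes for the proteins of the other ribosome and of the respiratory chain give a scale. Of 82 tested genes of the cytosolic ribosome, 7 were higher in AAKO and 5 lower in the fasted genotype comparison (median -0.01). Of the 77 mitochondrial ribosomal protein genes, 12 were higher and 45 lower there. In fasted against fed AAKO mice 53 of the 82 fell and 7 rose (median -0.17). In mice given CL316243 16 of the 82 were higher in AAKO and none lower (median 0.10). Of 76 nuclear genes for subunits of oxidative phosphorylation, 36 were lower in AAKO and 2 higher in the fasted genotype comparison (median -0.15). In fasted against fed AAKO mice 63 fell and 2 rose (median -0.34). The difference between these lists and the 77 genes was not tested.

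The tissue label was checked against markers. All 10 hepatocyte markers were well above background on every array, with summed signals between 5030 and 6180 times the 75th percentile. Between fasted AAKO and fasted CTRL mice 5 of 9 neutrophil markers were called higher and none lower, and their summed signal was 11.6 to 127 in AAKO and 3.46 to 82.2 in CTRL. Of 8 endothelial markers 4 were higher and none lower, with sums of 53.3 to 72.9 against 30.8 to 64.8. The ranges overlapped in both lists. They did not for stellate cell and fibroblast markers, with sums of 115 to 158 in AAKO and 89.0 to 112 in CTRL (2 of 8 markers higher, none lower). Nor did they for T, B and NK cell markers, with sums of 45.7 to 54.2 in AAKO and 65.2 to 82.5 in CTRL (2 of 7 tested lower, none higher). Of 11 Kupffer cell and macrophage markers 2 were higher and of 7 tested markers of dividing cells 3 were, and of 6 cholangiocyte markers 2 were lower, with overlapping sums. Over all tested genes 22.0% were called higher and 27.2% lower in this comparison, and the lists with 2 markers called lie near these shares. The markers were read in the same mice as the 77 genes, and their part in the result was not tested.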

How the data were processed

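The files are 36 Agilent Feature Extraction 10.10.1.1 outputs, 1 per mouse, in which the deposited spot intensity is background-subtracted and detrended within the array, per the file headers. A table of log2 values was also deposited by the authors for 36898 probes, without a stated normalization. Its column medians were equal within a group, at 6.91 (CTRL fed), 6.93 (AAKO fed), 6.97 (CTRL fasted), 7.01 (AAKO fasted), 6.91 (CTRL CL316243) and 6.88 (AAKO CL316243), and it was used as an alternative only. Sample groups, replicate numbers, experiment and wash batch came from the labels, and replicates are separate mice.

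Here, log2 of the processed intensity was taken relative to the 75th percentile of each array over probes other than controls. Of 59305 spots per array, those with an outlier mark were left out (2701 over all arrays, 0.127%), none was saturated, and spots of a probe were averaged. A gene was read from its probe with the highest mean and tested if the files marked that probe as well above background on 5 or 6 arrays of a group. On each array 58.5% to 65.7% of probes carried that mark, and the number of arrays limits the precision. All arrays entered 1 fit in limma 3.58.1 (R 4.3.3, with version 1.17.8 of data.table) with 6 group means and wash batch, moderated by eBayes, with two-sided tests and Benjamini-Hochberg adjustment over the 24250 genes of each of 12 contrasts. In a simulation of the fasted genotype comparison over 24250 genes, 67 genes were changed by 0.3 (log2), 67 by 0.6 and 66 by 1. Of these, 20.9%, 67.2% and 80.3% were recovered. In the data 22.0% of all tested genes were called higher and 27.2% lower. With so few genes changed, the adjustment was stricter in the simulation, and its shares do not carry over to the data.

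The genes and lists were chosen with earlier results of these data known. The text names the 3 highest and 3 lowest called genes of each contrast, genes with a set role in the ribosome, genes whose probes disagree, and the 2 highest and 2 lowest called genes of other lists. Single-array ranges are given mainly for genes named in at least 2 contrasts or for their role. Of 56605 probes, 32994 were named through a RefSeq table. Alternatives tried were other scalings, normexp with an offset of 50, the authors' table, other filters, probe averaging, slide and replicate blocks, single wash batches, and leaving out each array.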

Additional observations from a re-analysis of the deposited data

Results flagged for a closer look

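Among 132 group values of the named genes tested for a sample far from the others, 6 groups had one, and chance gives about 1 in 20. In CTRL fed mice replicate 6 was lowest for Mrpl12, at 5.61 with the next at 5.75, and for Mrpl17, at 3.60 with the next at 3.68. In CTRL fasted mice replicate 2 was lowest for Mrpl14, at 5.66 with the next at 6.10. Replicate 5 was lowest for Mrps18b, at 5.51 with the next at 5.91, and replicate 4 was highest for Mrpl17, at 4.31 with the next at 4.15. In CTRL CL316243 mice replicate 5 was highest for Mrps26, at 4.47 with the next at 4.33.

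Genotype differences that changed with condition, by the interaction term of the limma fit, are listed by contrast. Between fasted and fed mice 42 of the 77 genes had a called interaction, and the named ones were Mrps30 (0.67), Mrps18b (0.56), Mrpl41 (0.51), Mrpl35 (-1.33), Mrpl14 (-0.85) and Mrps22 (-0.83). Between CL316243-treated and fed mice 15 did, among them Mrps18b (0.70), Mrps27 (0.64), Mrps31 (0.50) and Mrps6 (-0.35). Between fasted and CL316243-treated mice 50 did, among them Mrps30 (0.40), Mrpl9 (0.40), Mrps6 (0.37), Mrpl35 (-1.38), Mrps22 (-0.92) and Mrps12 (-0.69).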

How the results depend on the processing

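Counts of called genes were compared with the 77-gene counts of the report. Requiring 1.5-fold left 6 of 57 in the fasted genotype comparison, 1 of 17 in the CL316243 one, 12 of 58 and 31 of 70 in fasted against fed CTRL and AAKO mice, 0 of 21 and 1 of 23 in CL316243 against fed, 2 of 38 and 24 of 65 in fasted against CL316243, and 6 of 42 (fasted and fed), 2 of 15 (CL316243 and fed) and 6 of 50 (fasted and CL316243) in the interactions. With fewer arrays, wash batch 1 alone called 3 (CL316243 genotype), 28 (fasted against fed, CTRL), 4 and 11 (CL316243 against fed, CTRL and AAKO), 20 (fasted against CL316243, CTRL), and 21, 0 and 20 in those interactions. Wash batch 2 alone called 34 (fasted genotype), 4 (CL316243 genotype), 7 and 5 (CL316243 against fed), and 9, 2 and 19. The CL316243 genotype count became 11 with median scaling, 10 without the filter on dim probes and 7 when only its groups were fitted. The CL316243 and fed interaction became 7 with median scaling, 9 in the authors' table, and 5 without that filter or with slide as a fixed block. The cause was not tested. Leaving out each array gave 0 to 0 genes in the fed genotype comparison, 54 to 58 in the fasted one, 9 to 18 with CL316243, 50 to 59 and 67 to 70 in fasted against fed (CTRL, AAKO), 16 to 23 and 20 to 25 in CL316243 against fed, 34 to 42 and 63 to 65 in fasted against CL316243, and 38 to 45, 6 to 15 and 44 to 51 in the interactions.

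Of 182 named calls, 157 held in the authors' table, 161 with median scaling, 167 with quantile normalization, 172 with normexp and 182 with slide as a random block. Directions turned for Mrpl11 in fasted against fed CTRL mice (0.01 in the authors' table) and for Mrpl41 there (0.01 in that table, 0.02 with quantile normalization). Averaging all probes turned Mrps18a to -0.03 in the CL316243 genotype comparison, 0.10 in CL316243 against fed CTRL mice, 0.19 in fasted against CL316243 AAKO mice, 0.23 in fasted against fed AAKO mice and -0.05 in the CL316243 and fed interaction. It turned Mrps31 to 0.69 and 0.35 in fasted against CL316243 (AAKO, CTRL) and 0.45 in fasted against fed CTRL mice. Replicate numbers did not pair the mice (correlations of same-numbered arrays from -0.303 to 0.36). With a replicate block the counts, in the order of the report, were 0, 56, 18, 55, 70, 22, 23, 39, 65, 41, 50 and 12, and 178 of the 182 named calls were unchanged.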
